A study of Mus musculus with 15 samples.

Results

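The immediate early genes of this series were taken as 10 genes matched by symbol, namely Arc, Fos, Fosb, Fosl1, Jun, Junb, Egr1, Ier2, Ier3 and Atf3. All 10 were in both deposited tables, among 13893 genes in dataset 1 and 15023 in dataset 2. Arc was chosen by its fold changes in these data, higher after PCBP1 knockdown and lower in both knockouts, so its values are given below as a description with no test, and the other 9 genes were tested. All samples came from NMuMG, an epithelial line from the normal mouse mammary gland. Dataset 2 held 2 samples labelled as NMuMG without treatment, which the study's text calls shSCR (transduced with a non-targeting hairpin), and 2 samples with shRNA knockdown of PCBP1. In dataset 1 every library carried the PCBP1 hairpin. Its 4 shPCBP1 control lines were the unaltered line and CT clones 1 to 3, which had been given Cas9 with no gene-specific guide RNA and are wild type at Fam3c and Lifr. They were compared with 3 FAM3C KO clones (FAM3C -/-), 3 LIFR KO clones (LIFR -/-) and 1 FAM3C/LIFR double KO. Each line of dataset 1 was 1 clonal or pooled population sampled as 1 RNA preparation, and nothing says that the replicates of dataset 2 came from separate cultures, so its p-values measure only the spread between these samples. FAM3C is a secreted cytokine-like protein, LIFR is the receptor for leukemia inhibitory factor, and PCBP1 is an RNA-binding protein. Cells were trypsinized, washed and pelleted before RNA extraction, per the study's methods.

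Immediate early genes are transcribed within minutes of a signal such as a growth factor, a cytokine or a stress, without the need for new protein, and their transcripts are short-lived. Many are switched on through the ERK kinases and the serum response factor, through CREB, or through STAT3. Most of the genes here encode transcription factors. Fos, Fosb and Fosl1 proteins pair with Jun or Junb to form AP-1, Egr1 is a zinc finger factor, and Atf3 is a stress-induced relative of the AP-1 proteins. Ier2 and Ier3 encode small response proteins, Ier3 being tied to survival and to ERK signalling. Arc is best known in neurons, where it governs the internalization of glutamate receptors at synapses.

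The proximal promoters are shown because some of the genes below that moved in opposite directions after PCBP1 knockdown share a signal-response motif before their start. The RefSeq table (build GRCm38.p6) held promoters for 6 of the 10 genes (Fos, Fosb, Jun, Junb, Ier3 and Atf3). The 150 bases before the start are printed 5′ to 3′ on the gene's strand, with capitals for TGACG (the core of a cyclic AMP response element, on either strand), for TGACATCA and for TATAAA.
Fos, chr12:85473740-85473889, plus strand: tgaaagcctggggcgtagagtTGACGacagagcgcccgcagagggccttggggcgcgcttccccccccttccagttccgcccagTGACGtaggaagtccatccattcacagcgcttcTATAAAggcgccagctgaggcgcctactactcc
Jun, chr4:95052223-95052372, minus strand: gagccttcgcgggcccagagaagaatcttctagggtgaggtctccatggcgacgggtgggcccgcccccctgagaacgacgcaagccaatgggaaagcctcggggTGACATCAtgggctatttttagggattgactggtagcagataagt
Junb, chr8:84978749-84978898, minus strand: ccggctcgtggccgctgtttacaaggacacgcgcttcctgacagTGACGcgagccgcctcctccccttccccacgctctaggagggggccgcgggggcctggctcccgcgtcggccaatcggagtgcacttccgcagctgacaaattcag
Atf3, chr1:191183334-191183483, minus strand: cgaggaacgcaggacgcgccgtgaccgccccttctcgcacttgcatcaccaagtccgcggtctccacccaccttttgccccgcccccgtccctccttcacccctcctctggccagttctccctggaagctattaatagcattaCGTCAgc
TGACG stood in the 250 bases before the start of Fos, Fosb, Junb and Atf3 and in 17.8% of all 32851 promoters. TGACATCA began at position -45 from the start of Jun and was in 2.93% of promoters, and TATAAA began at -33 from the start of Fos and was in 12.4%. Both strands were searched. The full element TGACGTCA (1.55% of promoters), the AP-1 motif TGACTCA or TGAGTCA (4.46%), the CArG box bound by serum response factor (1.47%) and the STAT motif TTCNNNGAA (7.02%) had no exact match in these windows. Bases further than 250 from the start were not searched, so sites there would have been missed. Fos, which was lower after knockdown, and Junb and Atf3, which were higher, all carried TGACG. Jun and Ier3, also higher, did not. No promoter was available for Egr1, the other gene that fell. The GC box GGGCGG, in 32.7% of promoters, stood before Fos, Fosb, Jun, Ier3 and Atf3. The EGR motif GCGTGGGCG or GCGGGGGCG, in 3.06%, stood before Fosb.

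The depth of each library was read from the steps between its lowest values. It came to 16031859 to 46901675 reads in dataset 1 and 53054620 to 56498133 in dataset 2. Pcbp1 was at 287 and 312 CPM (counts per library, scaled to a common total) in NMuMG and at 14.1 and 14.2 CPM in shPCBP1. Lifr was still at 34.9 and 29.3 CPM in LIFR KO clones 1 and 2, within the 25.8 to 40.2 CPM of the shPCBP1 lines, and at 14.6 CPM in clone 3. In the double KO Lifr was at 4.36 CPM, and in FAM3C KO clones 1 to 3 at 13.5, 10.5 and 19.2 CPM. Fam3c was at 26.4, 33.9 and 42.9 CPM in FAM3C KO clones 1 to 3 and at 42.3 CPM in the double KO, against 47.0 to 59.4 CPM in the shPCBP1 lines. Transcripts of both targeted genes thus remained, with Lifr lowest in the double KO. The summed CPM of 4 epithelial markers (Cdh1, Krt8, Krt18 and Krt19) was 2466 to 3166 in the shPCBP1 lines, 2001 to 3023 in FAM3C KO, 1212 to 2092 in LIFR KO and 1817 in the double KO, so that LIFR KO and shPCBP1 did not overlap. It was 2916 to 2970 in NMuMG and 2766 to 2823 in shPCBP1 of dataset 2. Cdh1 by itself overlapped, at 268 to 344 CPM in LIFR KO against 292 to 346 CPM. LIFR KO and shPCBP1 did not overlap, in either direction, in 17.2% of all genes tested. Mesenchymal markers (Vim, Pdgfra, Col1a1, Col3a1 and Zeb1) summed to 1358 to 1505 CPM in the shPCBP1 lines and 909 to 1277 CPM in LIFR KO, also without overlap. Vim made up most of this sum, at 844 to 1209 CPM in LIFR KO against 1295 to 1443 CPM. Zeb1 went the other way, at 62.1 to 64.9 CPM in LIFR KO against 55.8 to 61.2 CPM. Pdgfra, Col1a1 and Col3a1 overlapped. In dataset 2 Vim was at 474 and 496 CPM in NMuMG and at 1089 and 1122 CPM in shPCBP1. Col1a1 and Zeb1 were higher there too. Pdgfra, near the floor, was lower, at 0.531 and 0.547 CPM against 0.054 and 0.0001 CPM. The leukocyte and endothelial markers summed to at most 10.9 and 2.00 CPM. The part of these marker shifts in the results below was not tested. LIFR KO clones 2 and 3 and the double KO stood apart from the other 8 libraries of dataset 1. In these 3 libraries the deviation of a gene from its mean followed the GC content of its transcript (Spearman's rho -0.76 to -0.70 across genes, against -0.29 to 0.24 in the other 8), and 7.16% to 8.58% of the listed CPM came from 13 mitochondrial genes, against 3.14% to 4.06%. The immediate early genes are GC-rich. Junb had 62.6% GC, a higher share than 98.6% of tested genes, Ier2 60.9%, Arc 59.0% and Fosl1 58.5%, and the lowest of the 10, Fos, had 51.9% against a median of 49.7%. The LIFR KO differences of the 10 genes are therefore also given after subtraction of each library's trend on GC content. The marker sums above were not corrected in this way. CPM values do not tell fewer expressing cells from less RNA per cell.

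Per kilobase of transcript, Junb was the most abundant of the 10 genes in shPCBP1 of both datasets and in NMuMG. Levels per kilobase were not computed for the knockouts. In the shPCBP1 lines of dataset 1 it stood at 210 CPM per kb, followed by Ier3 at 196, Ier2 at 55.7, Jun at 19.3 and Fosl1 at 15.9. Atf3 (7.10 CPM per kb), Egr1 (4.90), Arc (2.90), Fos (1.05) and Fosb (0.61) were lower. Among the Fos family, Fosl1 was thus the main transcript and Fos and Fosb were scarce. In NMuMG the top 3 were in the same order, but Fosl1 (11.5 CPM per kb) stood above Jun (2.81), and Arc was last at 0.04 CPM per kb, below Fosb at 0.12 and Fos at 0.87. After knockdown Arc stood at 0.91 CPM per kb, next to Egr1 at 0.96 and above Fos at 0.29. The 2 tables were normalized separately, so levels are not compared across them.

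The 4 shPCBP1 lines of dataset 1 already differed among themselves in some of these genes. The standard deviation of log2(CPM + 0.1) over the 4 lines was 0.59 for Fosb, 0.54 for Fos, 0.50 for Egr1 and 0.47 for Arc, against a median of 0.13 over 12621 genes. These 4 genes varied more between control lines than 92.7% to 95.2% of genes. Ier2 varied least, with 0.13, near the median. Fosl1 (0.17), Jun (0.19), Atf3 (0.19), Junb (0.24) and Ier3 (0.31) varied more than 65.5% to 85.4% of genes.

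Arc (ENSMUSG00000022602, chromosome 15 of GRCm38, 74669083 to 74672570, minus strand) had the widest range of the 10 genes. In dataset 2 it was at 0.106 and 0.132 CPM in NMuMG, 6 and 7 times the step of the library, and at 2.80 and 2.73 CPM in shPCBP1, about 156 and 148 times the step. The ratio of the means was 23.2, and the difference in log2(CPM + 0.1) was 3.71. In dataset 1 the unaltered shPCBP1 line had 5.24 CPM of Arc, and CT clones 1 to 3 had 10.7, 9.37 and 10.1 CPM. The unaltered line was thus the lowest of the 4. FAM3C KO clones 1 to 3 had 0.841, 0.560 and 0.307 CPM. The values of LIFR KO clones 1 to 3 were 1.13, 2.25 and 0.257 CPM. The double KO stood at 0.281 CPM. All 7 knockout libraries lay below all 4 shPCBP1 lines, with log2 differences of -3.77 in FAM3C KO, -3.10 in LIFR KO and -4.51 in the double KO. LIFR KO clone 2 was the highest of the 7, and LIFR KO clone 3 and the double KO were the lowest. After GC correction the differences were -3.74, -2.48 and -3.68, and LIFR KO clone 1, whose library showed no GC trend, differed by -2.82 before correction. The correction moved LIFR KO clone 2 from -1.88 to -0.96, close to the lowest corrected shPCBP1 line at -0.74. The knockout values rest on 6 to 54 multiples of the lowest value of the library, so that counting error is large there.

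The genes around Arc were measured at the same time. Of the 8 other genes within 250 kb in the tables, 6 passed the filter in dataset 1 and 4 in dataset 2. Jrk, Psca, Them6 and Lynx1, which lie 33.3 to 77.9 kb upstream, were all higher after knockdown, with log2 differences of 0.34, 0.42, 0.71 and 1.25 (adjusted p from 5.85e-09 to 0.00261, limma), in a comparison in which 80.1% of all genes passed and 42.1% were higher. The difference of Arc, 3.71, was larger than those of its neighbours. In FAM3C KO none of the 6 passed the threshold (adjusted p from 0.240 to 0.951), against 0.309% of all genes. In LIFR KO, Jrk was lower by a log2 difference of -1.0 (adjusted p = 0.0348) and Them6 by -1.53 (adjusted p = 0.0398), while 5.55% of all genes were lower. After GC correction these were -0.56 (adjusted p = 0.202) and -0.75 (adjusted p = 0.352). Mroh4, on the other side of Arc, was at 0.996 to 1.45 CPM in the shPCBP1 lines and 0.160 to 0.399 CPM in FAM3C KO, with a log2 difference of -1.93 and an adjusted p of 0.240.

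**Figure D1:**
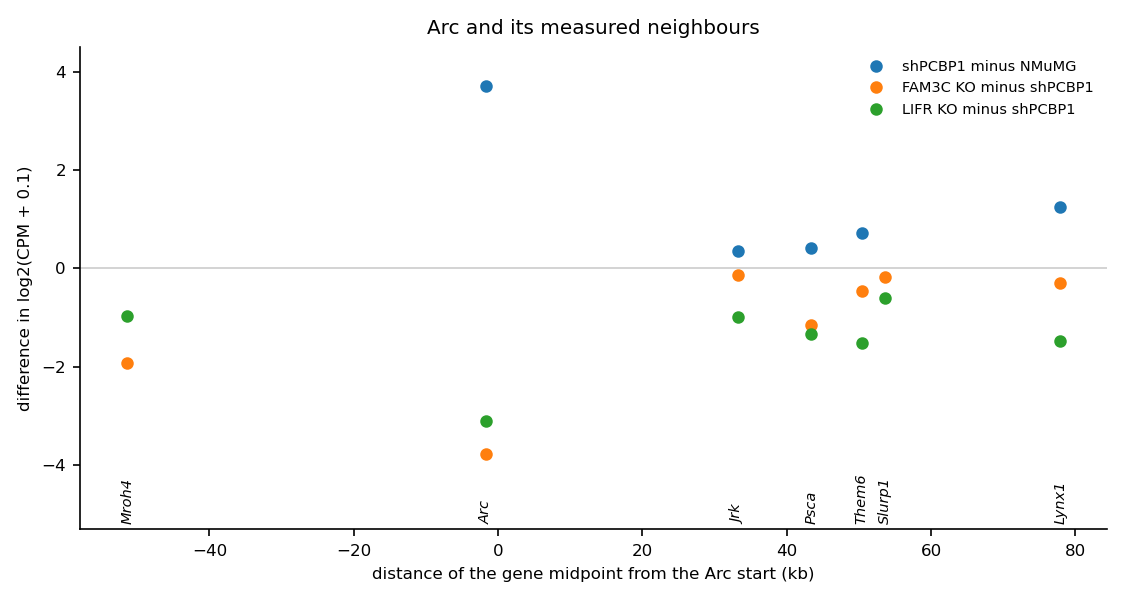
Difference in log2(CPM + 0.1) (vertical axis) for Arc and the 6 neighbours tested in dataset 1, by distance of the gene's midpoint from the Arc transcription start in kb (positive is upstream); blue is shPCBP1 minus NMuMG, orange FAM3C KO minus shPCBP1 and green LIFR KO minus shPCBP1. Arc reaches 3.71, -3.77 and -3.10, outside the range of its neighbours.

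In dataset 2, Jun, Fosl1 and Atf3 rose with PCBP1 knockdown, with ratios of mean CPM of 3.38, 2.97 and 2.70, Ier3, Ier2 and Junb rose with ratios of 1.798, 1.43 and 1.29, and Fos and Egr1 fell, with ratios of 0.332 and 0.591. All 8 genes that could be tested besides Arc passed (adjusted p under 0.07), with 6 higher and 2 lower. This has to be read against a background in which 80.1% of the 11384 genes tested passed, 42.1% higher and 38.0% lower, and the groups did not overlap in 89.0% (46.3% higher and 42.6% lower), since the 2 samples of a group lay very close together. The median log2 difference of the 8 genes was 0.68, against 0.02 over all genes. Fosb did not pass the filter of 0.5 CPM. It was at 0.478 and 0.396 CPM in NMuMG and 0.448 and 0.481 CPM in shPCBP1, so that the groups overlapped.

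Within the Fos family the members moved in opposite directions. Fos (ENSMUSG00000021250, chromosome 12, 85473890 to 85477273) was at 1.73 and 1.94 CPM in NMuMG and at 0.609 and 0.610 CPM in shPCBP1, a log2 difference of -1.45 (SE 0.147, adjusted p = 4.07e-06, limma). Fosl1 (ENSMUSG00000024912, chromosome 19, 5447547 to 5455946), which encodes FRA1, an AP-1 protein of invasive epithelial cells, was at 21.1 and 21.6 CPM in NMuMG and at 63.1 and 63.8 CPM in shPCBP1. Its log2 difference was 1.57 (SE 0.033, adjusted p = 1.55e-11). Fos, the less abundant per kilobase, thus fell in the same samples in which Fosl1 rose.

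Both Jun family genes rose. Jun (ENSMUSG00000052684, chromosome 4, 95049034 to 95052222) was at 8.01 and 9.92 CPM in NMuMG and at 29.2 and 31.4 CPM in shPCBP1. The log2 difference, 1.75 (SE 0.085, adjusted p = 7.87e-09), was the largest among the 8 tested genes. Junb (ENSMUSG00000052837, chromosome 8, 84974484 to 84978718), already abundant, went from 153 and 179 CPM to 206 and 220 CPM. Its log2 difference of 0.37 (SE 0.057, adjusted p = 0.000129) was the smallest among the 8.

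Egr1 (ENSMUSG00000038418, chromosome 18, 34859823 to 34864984) fell with Fos, from 7.20 and 7.39 CPM in NMuMG to 4.46 and 4.16 CPM in shPCBP1 (log2 difference -0.75, SE 0.086, adjusted p = 1.11e-05). Fos and Egr1 are both classical targets of serum response factor and its ERK-regulated partners. Whether these factors had a part in the fall was not tested. Ier3 (ENSMUSG00000003541, chromosome 17, 35821684 to 35822923) was at 49.4 and 50.3 CPM in NMuMG and 89.3 and 89.99 CPM in shPCBP1, and its log2 difference was 0.85 (SE 0.027, adjusted p = 2.95e-10). Ier2 (ENSMUSG00000053560, chromosome 8, 84661331 to 84662852) went from 25.1 and 27.1 CPM to 38.2 and 36.2 CPM, with a log2 difference of 0.51 (SE 0.046, adjusted p = 1.47e-06). Both response genes thus rose. Atf3 (ENSMUSG00000026628, chromosome 1, 191170296 to 191218039) was at 5.22 and 5.15 CPM in NMuMG and at 14.2 and 13.8 CPM in shPCBP1. Its log2 difference was 1.42 (SE 0.069, adjusted p = 7.76e-09), and its groups were far apart.

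**Figure D2:**
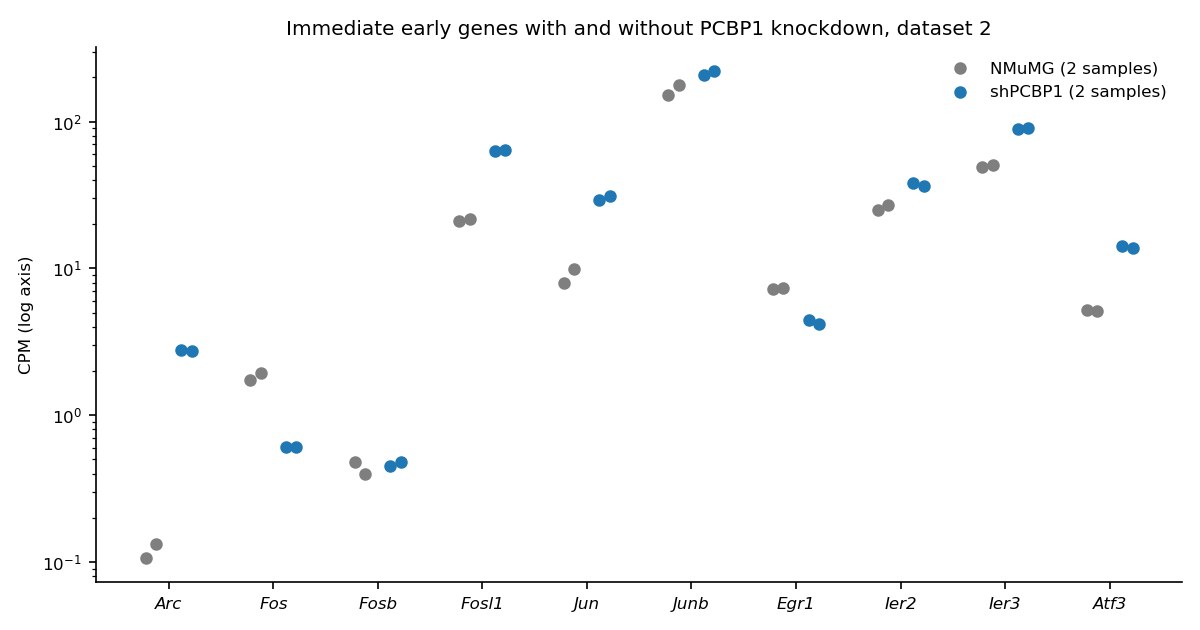
CPM on a log axis for the 10 genes in dataset 2, with grey points for the 2 NMuMG samples and blue points for the 2 shPCBP1 samples. Fos and Egr1 lie lower in shPCBP1, Fosb overlaps, and the other 7 genes, Arc among them, lie higher.

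In the fit of the 3 groups of dataset 1 together, FAM3C KO left the 9 tested genes without a detected change. None passed an adjusted p of 0.07 in limma, and 0 had an unadjusted p under 0.05, whereas 0.309% of the 12621 genes tested in this contrast passed (0.0872% higher and 0.222% lower). That share is 39 genes, and leaving out single libraries gave from 3 genes (without CT clone 1) to 354 (without LIFR KO clone 3). The median log2 difference of the 9 was 0.03, against -0.01 over all genes. Junb and Ier2 were the genes whose groups did not overlap. Junb had 370 CPM in the unaltered line, 420, 428 and 300 CPM in CT clones 1 to 3, and 291, 277 and 271 CPM in FAM3C KO clones 1 to 3. Ier2 was at 74.2, 89.3, 86.2 and 89.3 CPM in the same shPCBP1 lines and at 68.2, 56.1 and 67.7 CPM in FAM3C KO. All 3 clones lay below all 4 lines in both genes, as they did in 12.5% of all genes. The log2 differences were -0.43 for Junb (95% interval -1.20 to 0.35, adjusted p = 0.793) and -0.41 for Ier2 (-1.05 to 0.24, adjusted p = 0.747). The intervals use a spread pooled over the groups fitted, so that of the LIFR KO clones enters them. On the log2 scale the standard deviation of Junb was 0.05 in FAM3C KO, 0.24 in shPCBP1 and 0.98 in LIFR KO. It was 0.16, 0.13 and 0.81 for Ier2 and 0.05, 0.19 and 0.57 for Jun. With only shPCBP1 and FAM3C KO in the fit, the adjusted p of Ier2 was 0.0451, and 1040 of the 12621 genes passed in that fit.

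The other 7 genes overlapped between FAM3C KO and shPCBP1. Jun was at 67.4, 66.1, 50.8 and 61.6 CPM in the shPCBP1 lines and 68.9, 65.7 and 69.7 CPM in FAM3C KO, with a log2 difference of 0.16 (95% interval -0.33 to 0.64). Fosl1 was at 31.6, 30.5, 24.7 and 31.8 CPM against 26.7, 48.4 and 21.1 CPM. Its mean difference was 0.03 (-0.67 to 0.73), with clone 2 above and clones 1 and 3 near or below the shPCBP1 lines. Atf3 was at 16.3, 12.004, 14.7 and 13.2 CPM against 20.2, 14.2 and 21.1 CPM, a difference of 0.38 (-0.08 to 0.83). Egr1 was at 26.4, 29.9, 17.6 and 14.1 CPM against 22.8, 38.3 and 23.3 CPM, a difference of 0.37 (-0.23 to 0.98). All 4 intervals include 0. Ier3 was at 203, 201, 184 and 298 CPM against 190, 176 and 193 CPM, and its difference was -0.22 (-0.81 to 0.37). The scarce genes were the least certain. Fos was at 1.25, 1.94, 2.51 and 3.13 CPM against 2.57, 1.04 and 1.73 CPM (-0.31, interval -1.25 to 0.64), and Fosb at 3.93, 1.58, 1.62 and 2.13 CPM against 2.57, 4.0 and 2.57 CPM (0.45, interval -0.34 to 1.24).

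**Figure D3:**
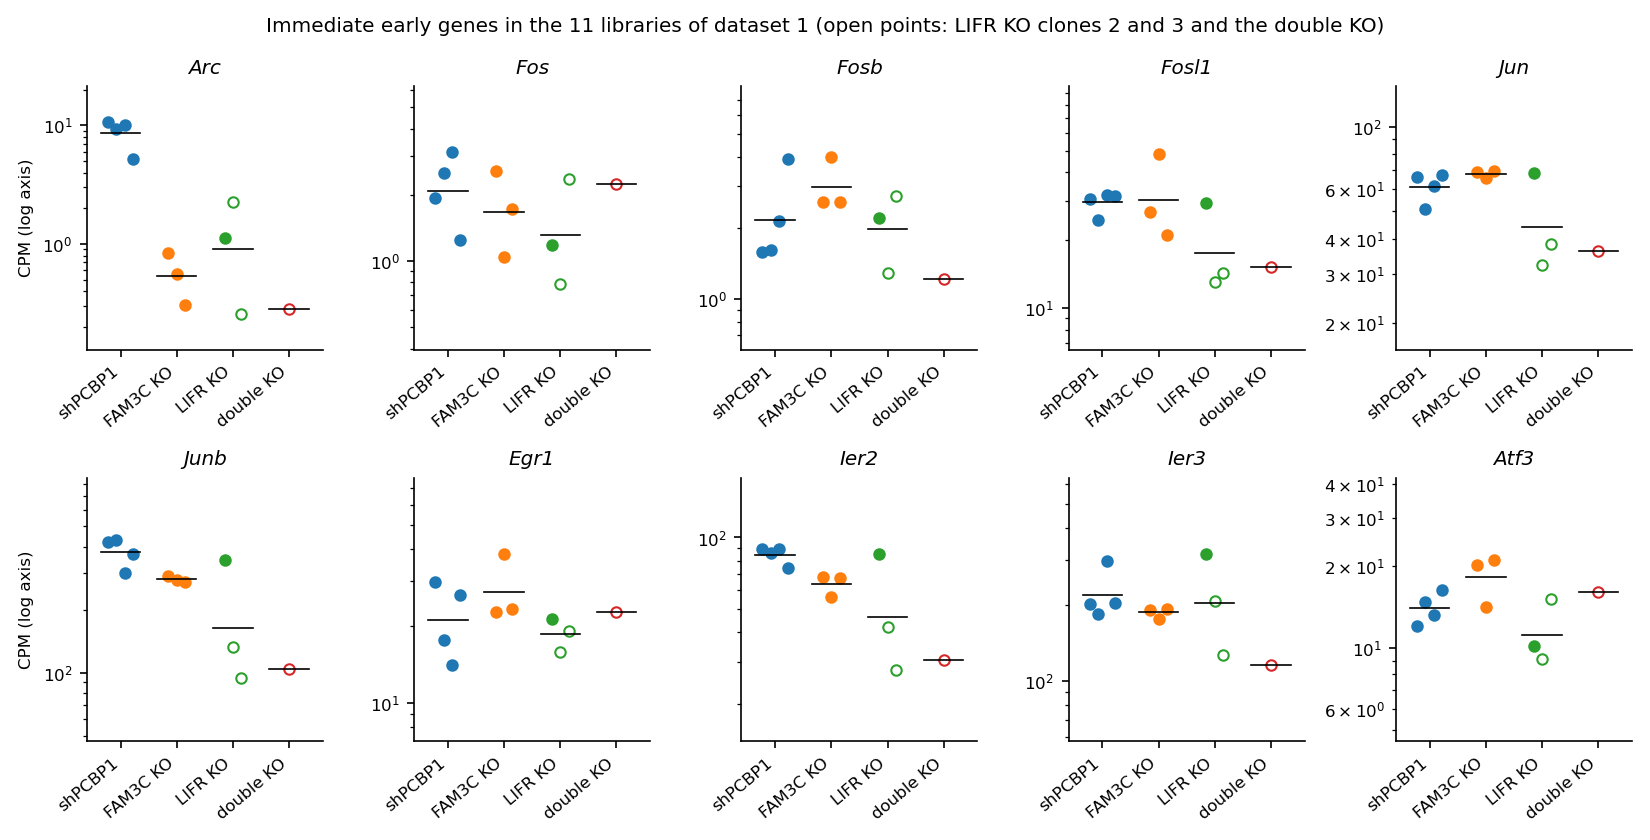
CPM on log axes for the 10 genes in the 11 libraries of dataset 1, with 1 point per library and a bar at the mean taken on log2(CPM + 0.1); open points are LIFR KO clones 2 and 3 and the double KO. Arc is lower in all 7 knockout libraries, whereas Jun, Junb, Ier2 and Fosl1 are low in the open points only or mostly, with LIFR KO clone 1 at the level of the shPCBP1 lines.

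In LIFR KO the 9 tested genes again gave no call at an adjusted p of 0.07 in limma, against 6.47% of all genes (0.911% higher and 5.55% lower). In the same fit 3 (Junb, Ier2 and Fosl1) had an unadjusted p under 0.05. The share of all genes at that cut was not counted, so the 3 are not read as an excess. The 6.47% are 816 genes, and without single libraries the count fell to 5 (without CT clone 2), 6 (without CT clone 3), 25 (without the unaltered line), 45 (without LIFR KO clone 2) or 48 (without CT clone 1). The lowest adjusted p was that of Junb. LIFR KO clones 1 to 3 had 346, 132 and 94.0 CPM of it, so that clone 1 lay inside the range of the shPCBP1 lines and clones 2 and 3 well below it. The log2 difference was -1.21 (95% interval -1.98 to -0.44, adjusted p = 0.0741). Ier2 was at 84.97, 41.9 and 27.9 CPM (-0.87, interval -1.51 to -0.22, adjusted p = 0.0897). Fosl1 was at 29.2, 13.1 and 14.3 CPM (-0.74, interval -1.44 to -0.04, adjusted p = 0.124), and Jun at 68.7, 32.3 and 38.3 CPM (-0.47, interval -0.96 to 0.01, adjusted p = 0.147). In each of these 4 genes clone 1 was at the level of the shPCBP1 lines, with log2 differences of -0.12, 0.01, -0.01 and 0.17 for Junb, Ier2, Fosl1 and Jun, while clones 2 and 3 had differences of -2.0 to -0.67. The means of LIFR KO therefore averaged unlike clones.

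These 4 genes, Junb, Ier2, Fosl1 and Jun, were lower in LIFR KO clones 2 and 3 and the double KO than in any of the other 8 libraries. So were 32.4% of all genes, and 68.7% of the 2589 genes whose GC content was at least that of Jun, the least GC-rich of the 4. The median gene in the highest of 20 bins of GC content (median 61.1% GC) had a log2 difference of -1.04 in the 3 libraries, and the median gene in the lowest bin (38.0% GC) one of 0.68. Against this, Junb differed by -1.79, Ier2 by -1.36, Fosl1 by -1.06 and Jun by -0.78, whereas Egr1, at 57.3% GC, differed by only -0.15 and Atf3 by -0.10. After GC correction the LIFR KO differences were -0.41 for Junb (95% interval -0.79 to -0.02, adjusted p = 0.258), -0.15 for Ier2 (-0.49 to 0.19, adjusted p = 0.631), -0.14 for Fosl1 (-0.71 to 0.43, adjusted p = 0.805) and -0.01 for Jun (-0.28 to 0.26, adjusted p = 0.983). In LIFR KO clones 2 and 3 the knockout and the GC trend cannot be told apart. When LIFR KO clone 1 was left out, all 4 genes passed in LIFR KO (adjusted p from 5.7e-05 to 0.00763), together with 7232 genes in all, 5048 of them lower.

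**Figure D4:**
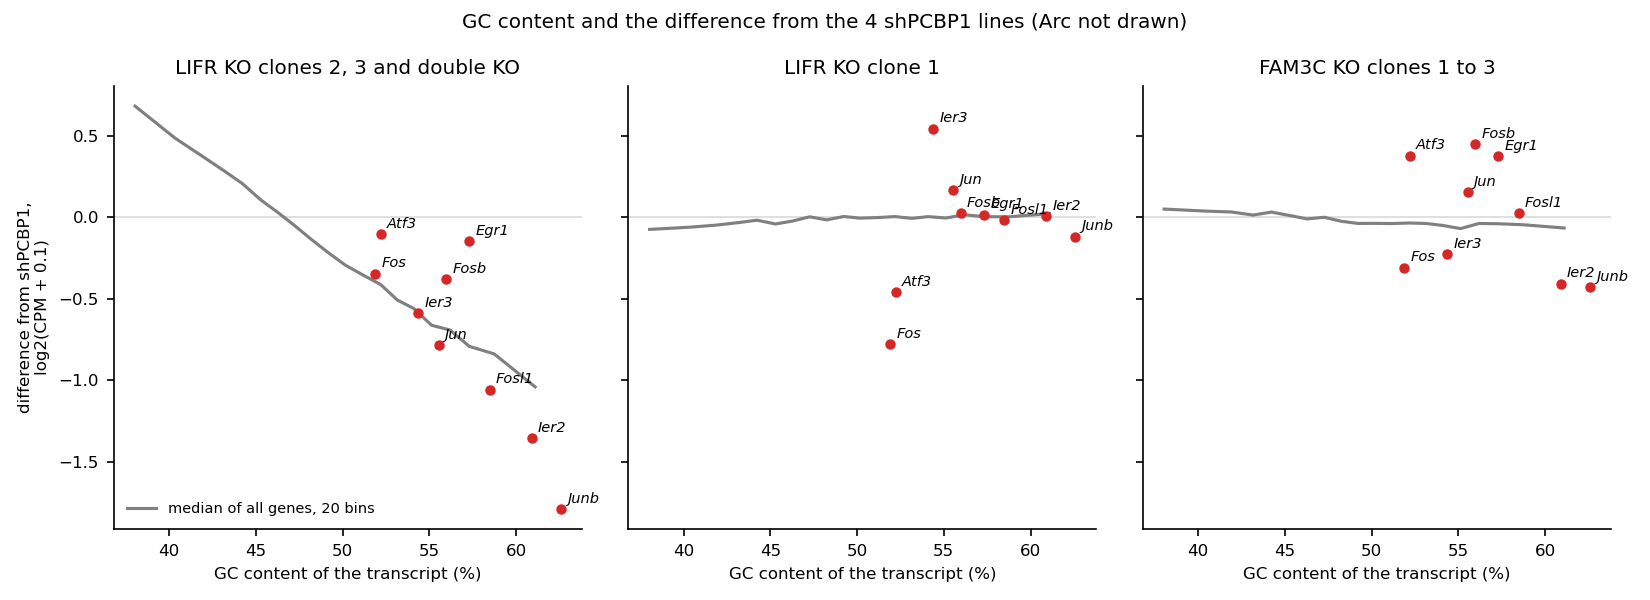
Difference from the mean of the 4 shPCBP1 lines in log2(CPM + 0.1) against the GC content of the transcript in percent, for the mean of LIFR KO clones 2 and 3 and the double KO (left), LIFR KO clone 1 (middle) and the mean of the FAM3C KO clones (right). Red points are the 9 tested genes and the grey line is the median of all genes in 20 bins, which runs from 0.68 to -1.04 in the left panel and is nearly flat in the other panels.

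The other 5 genes had intervals that included 0 in LIFR KO. Fos was at 1.18, 0.790 and 2.36 CPM in clones 1 to 3, with a log2 difference of -0.64 (95% interval -1.58 to 0.31), and Fosb at 2.20, 1.29 and 2.74 CPM (-0.11). Egr1 was at 21.3, 15.8 and 19.2 CPM (-0.18, 95% interval -0.78 to 0.43) and Atf3 at 10.1, 9.11 and 15.1 CPM (-0.32, interval -0.77 to 0.13). Ier3 was at 317, 206 and 127 CPM (-0.10, interval -0.69 to 0.49), with clone 1 above and clone 3 below every shPCBP1 line. None of the 9 genes had its LIFR KO and shPCBP1 values apart, against 17.2% of all genes. After GC correction the differences of Egr1, Fosb and Ier3 were 0.37, 0.37 and 0.33, with the opposite sign, those of Fos and Atf3 were -0.34 and -0.01, and no adjusted p was under 0.416.

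**Figure D5:**
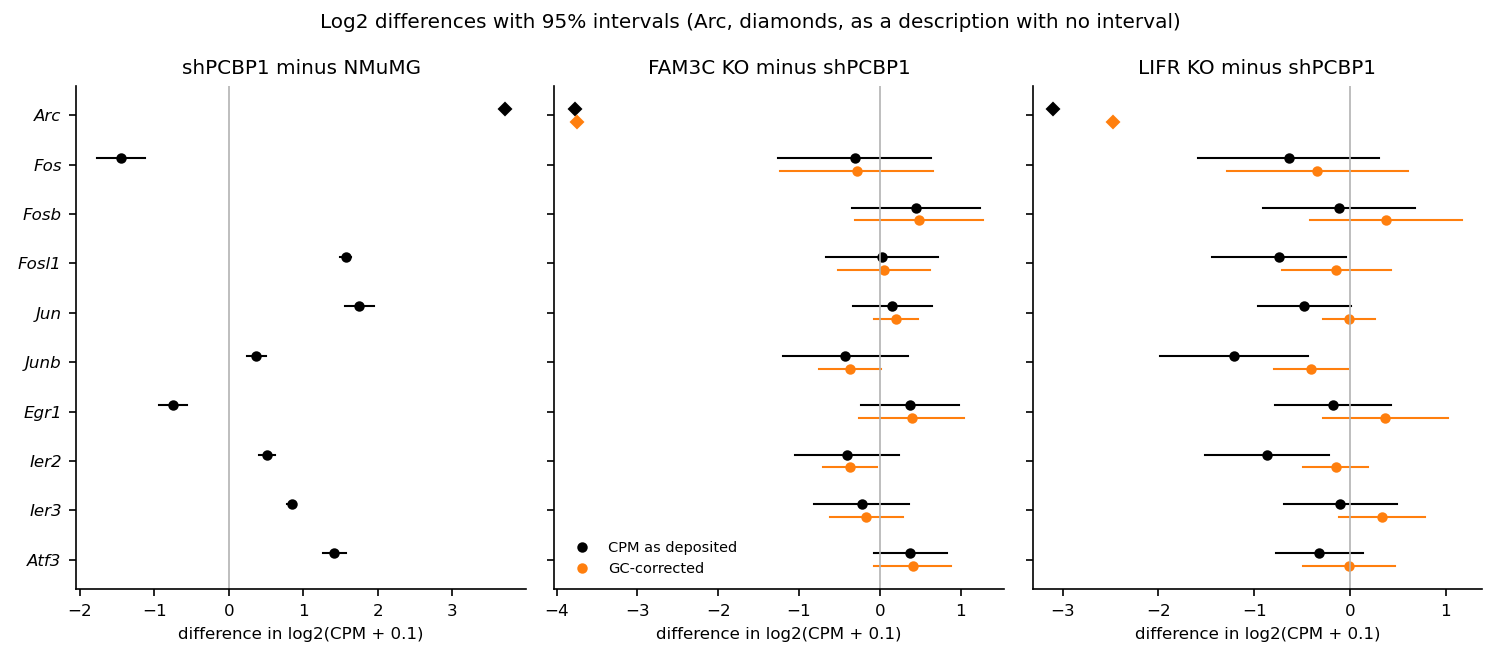
Difference in log2(CPM + 0.1) with its 95% interval for each gene in shPCBP1 minus NMuMG, FAM3C KO minus shPCBP1 and LIFR KO minus shPCBP1; black is the CPM as deposited and orange the values after GC correction, and the diamonds for Arc have no interval. In the knockdown every interval excludes 0, and in LIFR KO the black values of Junb and Ier2 (-1.21 and -0.87) lie far from their orange ones (-0.41 and -0.15).

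The direct contrast of the knockouts also gave 0 calls among the 9 genes in limma, against 8.28% of all genes (6.83% higher and 1.45% lower in FAM3C KO). An unadjusted p under 0.05 was seen in 3 (Atf3, Jun and Fosl1), with the share of all genes at that cut not counted. The 8.28% are 1045 genes, and the count was 1 without FAM3C KO clone 3, 5 without FAM3C KO clone 1 and 6674 without LIFR KO clone 1. Atf3 had the lowest adjusted p. It was higher in FAM3C KO than in LIFR KO by 0.70 on the log2 scale (95% interval 0.21 to 1.19, adjusted p = 0.0828), and by 0.42 (interval -0.10 to 0.93, adjusted p = 0.315) after GC correction. Leaving out LIFR KO clone 3 gave 0.92 (adjusted p = 0.0205), in a fit in which 1104 of 12621 genes were higher, and leaving out clone 1 gave 0.63 (adjusted p = 0.0561). Without clone 1, when 4693 genes were higher, Jun, Junb, Ier2 and Fosl1 passed as well, so that 5 of the 9 genes were higher in FAM3C KO than in LIFR KO clones 2 and 3. Egr1 was higher in all 3 FAM3C KO clones than in all 3 LIFR KO clones, as were 16.1% of genes, with a log2 difference of 0.55 (interval -0.10 to 1.20, adjusted p = 0.225) that was 0.03 after GC correction. In the double KO, a lone library, 6 of the 9 genes (Fosb, Fosl1, Jun, Junb, Ier2 and Ier3) lay below every shPCBP1 line, as did 53.8% of all genes. Its Junb was at 104 CPM, Ier2 at 30.6 CPM, Jun at 36.2 CPM, Fosl1 at 15.2 CPM, Ier3 at 116 CPM and Fosb at 1.22 CPM. Its Fos (2.25 CPM), Egr1 (22.7 CPM) and Atf3 (16.0 CPM) were between the lowest and the highest shPCBP1 line. After GC correction the differences of the double KO were -0.76 for Junb, -0.51 for Ier2 and -0.33 for Ier3, still below the 4 lines, whereas Fosb (-0.13), Fosl1 (-0.16) and Jun (-0.13) lay inside the range of the lines, Egr1 (0.82) and Atf3 (0.64) above it and Fos (0.52) inside it.

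The study superimposed the fold changes of the knockdown on those of the knockouts. With a ratio of mean CPM of at least 1.5 in the knockdown and a change of at least 1.5 times, up or down, in each knockout, Arc was the only one of 9 genes tested in both tables that met all 3 conditions, as the rule that chose it requires. The same held for 149 of 11049 genes, or 1.35%. Jun, Fosl1, Atf3 and Ier3 were raised at least 1.5 times by the knockdown, as were 16.3% of all genes, but in FAM3C KO their ratios were 1.11, 1.08, 1.31 and 0.842. In LIFR KO their ratios, without GC correction, were 0.755, 0.635, 0.814 and 0.980. Fos was at a ratio of 0.332 in the knockdown, 0.807 in FAM3C KO and 0.654 in LIFR KO.

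Across the 11 libraries of dataset 1, the other 9 genes followed Arc to unlike degrees. Pearson's r with Arc on log2(CPM + 0.1) was 0.70 for Ier2, 0.64 for Junb and 0.53 for Ier3, and between -0.37 (Atf3) and 0.36 (Fosl1) for the rest. The genes with the highest r to Arc were Cyfip2 (0.96), Gda (0.95), Hoxb13 (0.95), Kif4 (0.95) and Peli2 (0.94), and of these Gda, Hoxb13, Kif4 and Peli2 were lower in all 7 knockout libraries than in all 4 shPCBP1 lines. These genes were chosen by their likeness to Arc over the same libraries, so their separation is no separate result. The share of all genes lower in all 7 was not counted. Cyfip2, whose product regulates actin through the WAVE complex, was at 7.92 to 77.5 CPM in the shPCBP1 lines and at 0.094 to 9.90 CPM in the knockouts, so that its ranges overlapped. It was at 1.31 and 1.07 CPM in shPCBP1 of dataset 2 and at the stand-in for 0 in both NMuMG samples. Hoxb13, in contrast, was at 10.3 and 10.8 CPM in NMuMG and at 6.22 and 6.32 CPM in shPCBP1. Fos was most like Adap1 (r = 0.91), Neurl2 (0.88), Sft2d2 (0.87), Sdc2 (0.87) and Scarb2 (0.86). Like Fos, Adap1 was lower with knockdown in dataset 2, at 33.0 and 34.1 CPM in NMuMG and 6.09 and 7.13 CPM in shPCBP1. These correlations describe 11 libraries that share a parent line, and 3 of them share the GC trend.

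Other immediate early genes mostly rose with the knockdown. Of 35 such genes, 30 could be tested in dataset 2, and 25 were higher and 2 lower, against 42.1% and 38.0% of all genes. Their median log2 difference was 0.70. Ptgs2, which encodes the inducible cyclooxygenase, went from 5.03 and 4.85 CPM in NMuMG to 54.5 and 55.3 CPM in shPCBP1 (log2 difference 3.45, SE 0.049). Sgk1, a kinase gene induced by serum and glucocorticoids, rose by 1.78, and Dusp1, a phosphatase gene that limits MAP kinases, by 1.32. Dusp2, at the stand-in for 0 in both NMuMG samples, had 4.35 and 4.99 CPM in shPCBP1. Gadd45b (-0.34) and Btg2 (-0.26) fell. The remaining 3 did not pass. In FAM3C KO none of 31 passed in limma, against 0.309% of all genes. An unadjusted p under 0.05 was seen in 7, which is not read as an excess, since the share of all genes at that cut was not counted. After GC correction Zfp36, named after its values were seen, passed there at -0.45 (adjusted p = 0.0567), in a fit in which 232 of 12621 genes passed. In LIFR KO Ier5l (-1.56), Klf4 (-1.19) and Maff (-0.56) were lower and none was higher, against 5.55% and 0.911% of all genes. None of these 3 passed after GC correction (adjusted p from 0.121 to 0.991). Klf4, which encodes a zinc finger factor of epithelial differentiation and stem cells, was also low in LIFR KO clone 1. Its values were 38.6, 34.2 and 50.2 CPM in the 3 clones, 64.8 CPM in the double KO and 73.7 to 112 CPM in the shPCBP1 lines.

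Among the remaining AP-1 and related genes, Fosl2 rose in the knockdown, from 37.3 and 39.4 CPM to 106 and 108 CPM (log2 difference 1.48, SE 0.033). Of 5 tested in that list, Fosl2, Jund and Atf7 were higher and Atf2 and Jdp2 lower. In LIFR KO, Jund (-1.48, adjusted p = 0.0543) and Jdp2 (-0.78, adjusted p = 0.0558) were lower, in a contrast in which 5.55% of all genes were lower. After GC correction the adjusted p of Jund and Jdp2 were 0.231 and 0.203. Of 10 feedback targets of ERK tested in the knockdown, 3 were higher (Spry2, Spred2 and Etv5) and 5 lower, among them Spred3 (-0.83), Spred1 (-0.72) and Dusp6 (-0.35). Of 13 upstream transcription factors 6 were higher and 4 lower in the knockdown, near the 42.1% and 38.0% of all genes. Srf rose by 0.39 and Elk3 by 0.45, and Creb1 fell by 0.37 and Mef2a by 0.50 on the log2 scale. Of 10 upstream kinases 3 were higher and 4 lower in the knockdown, the widest change being that of Rps6ka1, which encodes RSK1 (-1.03).

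Atf3 is often induced together with genes of the integrated stress response. Of 9 such genes tested in the knockdown, 2 were higher (Chac1, 0.44, and Herpud1, 0.27) and 6 lower, among them Atf5 (-1.35), Ddit3 (-0.65) and Trib3 (-0.62), and Atf4 was at 0.02. Over all genes 42.1% were higher and 38.0% lower. The median log2 difference of the 9 was -0.20. In LIFR KO, Atf5 (-1.59), Ddit3 (-0.91), Herpud1 (-0.84) and Sesn2 (-0.67) were lower, and 6 of the 9 were higher in FAM3C KO than in LIFR KO, against 5.55% of all genes lower in LIFR KO and 6.83% higher in FAM3C KO than in LIFR KO. After GC correction none passed in either contrast. Of the activity-induced genes that Arc is known with in neurons, 4 could be tested in dataset 2. Bdnf, a neurotrophin gene, rose by 3.23, Vgf by 0.81 and Homer1 by 0.44, and Rgs2 fell by 2.32 on the log2 scale. In the knockouts none of the 5 tested passed in limma. At an unadjusted p under 0.05 there were 1 in FAM3C KO and 3 in LIFR KO, with the share of all genes at that cut not counted. The median log2 difference of the 5 was -0.14 in FAM3C KO and -0.43 in LIFR KO (-0.67 after GC correction). Of the neuronal markers, Rbfox3 was listed at 0.0178 CPM at most in dataset 2 and was not listed in dataset 1. Snap25 and Syt1 were listed in neither dataset.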

How the data were processed

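RNA-Seq values of 11 libraries (dataset 1) and 4 libraries (dataset 2) were analysed. The authors trimmed and aligned the reads in Partek Flow with Bowtie2 to GRCm38, assigned them to genes, tested with DESeq2 and deposited CPM per library, with the lowest value of a library (dataset 1) or 0.0001 (dataset 2) in place of 0. The mean CPM and the ratio (fold change) of dataset 2 deposited by the authors were not used. Of the values under 2 CPM, 85.5% to 90.6% per library were whole multiples of the library's step (within 0.05), too few for reads to be recovered, and the CPM were not tested as counts. Libraries differ in depth, and the number of reads limits the precision of the scarce genes. Differences between groups came from limma 3.58.1 (R 4.3.3) on log2(CPM + 0.1) with a mean-variance trend, a scale that understates the change of scarce genes, for genes whose mean reached 0.5 CPM (12621 in dataset 1 and 11384 in dataset 2). The 3 groups of dataset 1 were fitted together without the double KO. Adjusted p (Benjamini-Hochberg over all genes tested) under 0.07 was the threshold, as in the study. GC correction subtracted a loess curve (span 0.3) of each library's deviation on transcript GC content, known for 12603 of the 12621 genes. Gene starts of dataset 2 equalled those of GENCODE M21 for 14269 of 14795 genes and those of dataset 1 for 302 of 13870, so coordinates, lengths and GC content are from GENCODE M21. The fit was tested on simulated data with 200 changed genes in each comparison: 97 changed by 2 and 87 changed by 1 on the log2 scale were found among 11384 genes for the knockdown, and 94 and 66 among 12621 for FAM3C KO, with 4 and 16 false calls. The simulated noise was independent between genes, with the same spread of a gene in every group and no GC trend. Dataset 1 was unlike this, so these counts do not measure what the fit could find there. The 10 genes and the lists were chosen with earlier results of these data known. Genes named from the lists passed the threshold in a contrast or were among the most abundant, the genes like Arc and Fos are the 5 with the highest r, and the neighbours of Arc are those within 250 kb.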

Additional observations from a re-analysis of the deposited data

Results flagged for a closer look

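Fosl1 in the 4 shPCBP1 lines of dataset 1 had a library that stood far from the others. It was at 24.7 CPM in CT clone 2 and at 31.6, 30.5 and 31.8 CPM in the unaltered line and CT clones 1 and 3. On log2(CPM + 0.1), the gap between CT clone 2 and the nearest line was 0.837 of the whole range of the 4 values, above Dixon's 95% critical value for 4 samples. Chance alone passes this limit in about 1 in 20 such groups, and the 10 genes gave several such groups. Groups of fewer than 4 libraries were not examined in this way.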

How the results depend on the processing

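The 8 calls of the knockdown passed under every alternative run but that with a fold change of at least 1.5, which left 6 (without Junb and Ier2), the highest adjusted p being 0.0695 (Junb, without an shPCBP1 library), whereas calls in dataset 1 depended on the libraries and the fit. The causes of these shifts were not tested. Genes past the threshold in FAM3C KO (39) numbered 21 with a filter of 1 CPM, 1040 with the 2 groups alone and 232 after GC correction, and in LIFR KO (816, 115 higher and 701 lower) 359 at an adjusted p under 0.05, 478 with median-ratio scaling (190 higher and 288 lower), 34 with the 2 groups alone, 280 with LIFR KO clone 1 alone and 45 after GC correction (23 higher and 22 lower). Between the knockouts (1045) they numbered 587 at an adjusted p under 0.05, 0 with the 2 groups alone and 75 after GC correction. In the knockdown (9123) a fold change of at least 1.5 left 3543. With the 2 groups alone 1 of the 9 genes, Ier2, passed in FAM3C KO. Without single libraries the counts ran from 3 to 354 in FAM3C KO, 5 to 7232 in LIFR KO and 1 to 6674 between the knockouts, and of the 9 genes 0 to 4 passed in LIFR KO and 0 to 5 between the knockouts, the highest counts for LIFR KO and between the knockouts being those without LIFR KO clone 1.

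The replicate numbers did not pair the samples: deviations of same-numbered libraries correlated at -0.181 to 0.154 in dataset 1 and 0.051 in dataset 2. With the replicate number as a block, 15 genes passed in FAM3C KO, 10 in LIFR KO, 0 between the knockouts (limma) and 9235 in the knockdown, and of the 9 genes 0 passed in the knockouts and 8 in the knockdown. With GC correction and the block together the counts were 8, 3 and 0.

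The difference of Arc on the log2 scale was -2.62 in FAM3C KO and -2.90 in the double KO with a pseudocount of 1, and -3.68 in the double KO after GC correction. In the knockdown it was 1.75 with a pseudocount of 1, 4.43 with 0.01 and 3.03 after quantile normalization. At a ratio of at least 2, 46 genes met all 3 conditions of the superimposition (149 at 1.5).

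Small differences that did not pass changed sign. In LIFR KO, Egr1 was 0.033 (quantile), 0.018 (clone 1 alone), 0.37 (GC) and 0.46 (GC and block). Fosb was 0.043 (median-ratio), 0.13 (quantile), 0.17 (block), 0.028 (clone 1 alone), 0.37 (GC) and 0.64 (GC and block), and Ier3 0.062 (median-ratio), 0.55 (clone 1 alone), 0.33 (GC) and 0.29 (GC and block). Jun was 0.17 (clone 1 alone) and 0.031 (GC and block), Ier2 0.0083 (clone 1 alone) and Atf3 0.057 (GC and block). Between the knockouts, Ier2 was -0.41 (clone 1 alone), -0.22 (GC) and -0.22 (GC and block), Jun -0.013 and Junb -0.31 (both clone 1 alone). Without single libraries, Fos ran from -0.60 to 0.011 and Fosl1 from -0.31 to 0.28 in FAM3C KO, Fosb from -0.34 to 0.18 and Ier3 from -0.42 to 0.24 in LIFR KO, and Fos from -0.0017 to 0.73 and Ier3 from -0.46 to 0.20 between the knockouts. Depth limits Arc in NMuMG and the knockouts, and Fos and Fosb throughout.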
